A study of Mus musculus with 15 samples.

Results

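The genes described here code for the subunits of oxidative phosphorylation, with cytochrome c, a few assembly factors and close relatives that share the subunits' gene names. They were taken from a table of normalized counts of mouse liver RNA-seq by symbol alone: every symbol that starts with Nduf, Uqcr, Atp5 or mt-, every symbol that starts with Cox and a digit from 4 to 8, and Sdha, Sdhb, Sdhc, Sdhd, Cycs and Cyc1. The rule found 104 of the 16330 genes listed, 91 of the nuclear and 13 of the mitochondrial genome. Of these, 43 belong to complex I, 4 to complex II, 10 to complex III, 18 to complex IV and 16 to complex V; 1 codes for cytochrome c, 7 are complex I assembly factors of the Ndufaf series, 4 are associated genes, and Atp5l2 is annotated as a processed pseudogene. A filter on low values passed 101 of the 104, 88 nuclear and all 13 mitochondrial; Atp5l2, Cox4i2 and Cox8b did not pass and were not tested. Ndufa4, Atp5g2 and Atp5if1 were not analysed here.

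The livers carried a construct for luciferase, a light-producing enzyme used as the control, or for LbNOX, an NADH oxidase of Lactobacillus brevis that regenerates NAD+ and reduces oxygen to water. The mice were given water or ethanol by gavage and the liver was taken 6 h later, which gave 5 luciferase libraries after water (M1 to M5), 4 LbNOX libraries after water (M6 to M9), 3 luciferase libraries after ethanol (M10 to M12) and 3 LbNOX libraries after ethanol (M13 to M15). Titles and table header name these constructs and were followed here, whereas the design text names wild type or ChREBP mice; how the constructs reached the liver, the strain, the sex and the age are not given in the sources used here. The labels do not say that each library is a separate animal, so a p-value here measures the spread between samples that may be technical.

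Oxidative phosphorylation passes electrons from NADH, through complex I, and from succinate, through complex II, to ubiquinone, then through complex III and cytochrome c to complex IV, which reduces oxygen to water. Complexes I, III and IV pump protons across the inner mitochondrial membrane, and complex V, the ATP synthase, uses the gradient to make ATP. Most subunits are coded in the nucleus, while a small core of complexes I, III, IV and V is coded by the circular mitochondrial genome and transcribed there as long precursors from both strands. In the liver the pathway reoxidizes NADH, including the NADH that alcohol and aldehyde dehydrogenase make from ethanol, and LbNOX removes NADH without the chain.

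Depth, read back from the table, was 10.6 M to 23.7 M reads per library and 10.6 M to 15.7 M in the ethanol groups. The summed level of 8 hepatocyte markers, among them Alb, was 668626 to 1145120 normalized counts per library, and none of the 8 was at 0 in any library, as the liver label has it. Libraries M3, M8 and M15 stood apart in the genes described here, as given below, and results that rest on them are given with and without them. In bulk tissue, fewer cells of a type and less RNA per cell cannot be told apart.

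Per kilobase of gene model, all 13 genes of the mitochondrial genome stood above all 91 nuclear ones. Levels in this paragraph are normalized counts per kilobase, averaged over the 15 libraries, and the length is that of all annotated exons joined, so that a gene with long, rarely used exons is understated. The catalytic subunit of complex IV, mt-Co1, was the highest at 195102, followed by mt-Co2 at 159381, mt-Co3 at 141216, mt-Atp6 at 111466, mt-Nd1 at 99992 and mt-Cytb at 96492. The lowest of the mitochondrial genome, mt-Nd3, stood at 16181, still above Atp5a1, the alpha subunit of the ATP synthase and the highest nuclear gene, at 6036. The beta subunit Atp5b, which carries the catalytic sites, had almost the same level as the alpha subunit, 5926. Small nuclear subunits of complex IV came next, Cox8a at 5739, Cox6a1 at 5634 and Cox6b1 at 5164.

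The median nuclear subunit stood at 779 per kilobase in complex I (36 genes), 1681 in complex II (4 genes), 1975 in complex III (9 genes), 1100 in complex IV (15 genes) and 1691 in complex V (14 genes). In complex II the anchor subunit Sdhd (3624) and the flavoprotein Sdha (2061) were above the iron-sulfur subunit Sdhb (1301) and the other anchor Sdhc (830). Complex I ran from Ndufa8 at 3862 down to Ndufs4 at 88.1; Ndufv1, which holds the NADH site, stood at 1716 and the iron-sulfur subunit Ndufs1 at 363. Cytochrome c (Cycs, 1073) was close to cytochrome c1 (Cyc1, 781). The complex I assembly factors were lower than most subunits, with a median of 72.5 and a range from 17.7 (Ndufaf3) to 412 (Ndufaf1). At the bottom lay isoform genes known from other tissues: Cox7a1 at 23.8, Cox6a2 at 12.1 and Cox8b at 11.4, which serve heart and skeletal muscle, and Cox4i2 at 1.10, an isoform of the lung.

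**Figure D1:**
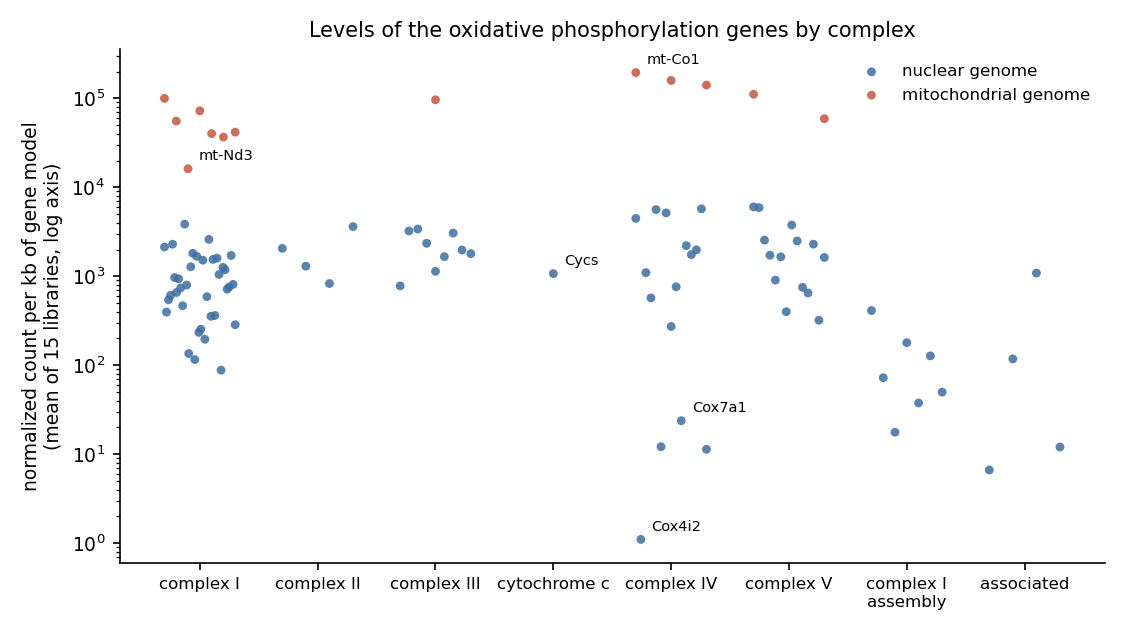
Normalized count per kilobase of gene model on a log axis, mean of 15 libraries, for 103 of the 104 genes (Atp5l2 is left out), by complex; each point is a gene, blue for the nuclear and red for the mitochondrial genome. All 13 mitochondrial points lie between 16181 and 195102, above every nuclear point.

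The liver isoforms carried nearly all of the signal of their pairs. On the per-kilobase scale Cox6a2 amounted to 0.216% of Cox6a1, Cox8b to 0.198% of Cox8a, Cox4i2 to 0.0246% of Cox4i1 and Cox7a1 to 1.07% of Cox7a2. The testis isoform Cox6b2 reached 5.29% of Cox6b1. Of the 2 genes listed for the c ring of the ATP synthase, which code for the same mature protein, Atp5g1 stood at 10.6% of Atp5g3. That ratio depends on the joined exon lengths, 4912 bases for Atp5g1 and 2181 for Atp5g3. Before division by length the mean counts were 1968 and 8225.

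Reading frames of the mitochondrial genome overlap, which bears on how its reads are split. The end of mt-Atp8, a small subunit of the ATP synthase (mouse mitochondrial genome, GRCm38, chrM:7766-7969, plus strand, 204 bases), shares 43 bases with the start of mt-Atp6 (chrM:7927-7969). The sequence of mt-Atp8 is shown 5′ to 3′ because its level was the most variable of the 13, with the shared bases in capitals:
mt-Atp8: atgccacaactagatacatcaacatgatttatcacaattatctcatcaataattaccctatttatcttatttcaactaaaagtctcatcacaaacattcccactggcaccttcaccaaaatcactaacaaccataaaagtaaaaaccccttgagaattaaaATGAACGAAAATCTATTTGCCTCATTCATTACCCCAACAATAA
On the per-kilobase scale mt-Atp8 ran from 32.4% of mt-Atp6 in M6 to 114% in M3. Its pooled SD within groups was 0.56 on the log2 scale, against 0.24 for mt-Co1, mt-Nd5 and mt-Nd6. The frames of mt-Nd4l and mt-Nd4 share 7 bases and those of mt-Atp6 and mt-Co3 share 1. mt-Nd6, the only protein gene on the other strand, shares 14 bases with mt-Nd5. Whether the estimates used the strand is not given in the sources used here, and copies of mitochondrial sequence in the nuclear genome can take or give reads, so the split within these pairs is uncertain.

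The mitochondrial genes made up 5.47% to 8.36% of all reads of a library and the nuclear members 1.10% to 1.76%. By group the mitochondrial share was 7.05% ± 0.69 (SD, n = 5) in luciferase livers after water, 6.73% ± 1.27 (n = 4) in LbNOX livers after water, 7.33% ± 0.44 (n = 3) in luciferase livers after ethanol and 6.56% ± 0.85 (n = 3) in LbNOX livers after ethanol. The libraries of all 4 groups overlapped. The ratio of mitochondrial to nuclear reads ran from 3.47 in M6 to 6.07 in M10.

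Nuclear genes of the pathway moved together from library to library. A level is given here as the median over genes of the log2 difference from the mean of all 15 libraries. For the 88 nuclear genes it was -0.08, 0.08, -0.55, 0.02 and 0.35 in M1 to M5, 0.17, 0.07, -0.31 and 0.44 in M6 to M9, -0.06, 0.17 and 0.00 in M10 to M12 and 0.00, 0.05 and -0.33 in M13 to M15. M3, M8 and M15 were low and M5 and M9 high, and all 4 groups overlapped. Taking the mean over genes in place of the median, the range over the 5 luciferase libraries after water was 0.81 on the log2 scale (1.76-fold). Over the 4 LbNOX libraries after water it was 0.72 (1.64-fold), and over the 3 libraries after ethanol 0.29 for luciferase and 0.34 for LbNOX. The 4 group means spanned 0.22 (1.17-fold), but a mean over libraries varies less than single libraries, so these ranges are not on a par. Within its group, M3 held the lowest value for 79 of the 88 nuclear genes, M8 for 83 and M15 for 80, while M5 held the highest for 73 and M9 for 78.

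The mitochondrial genes did not follow the same order. Their level was -0.28, 0.00, -0.30, 0.34 and 0.37 in M1 to M5, -0.32, -0.14, -0.13 and 0.44 in M6 to M9, 0.24, 0.29 and -0.02 in M10 to M12 and -0.06, 0.01 and -0.47 in M13 to M15. M1 and M6, near or above 0 for the nuclear genes, were as low as M3 here, and M9 was the highest library for both genomes. M15 was lowest of its group for all 13 mitochondrial genes and M12 for all 13 of its own. The 4 group means of the mitochondrial genes spanned 0.34 (1.26-fold), with the highest mean in luciferase livers after ethanol and the lowest in LbNOX livers after ethanol, and the range over all libraries was 0.90. After quantile normalization that range was 0.57. That scaling gives each rank the same value in every library, which evens out very abundant genes such as mt-Co1 by design. The size of the range therefore differs between the scalings, and which is nearer cannot be told.

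Liver endothelial markers ran against the nuclear level in M3, M8 and M15, and other lists were less uniform. The 3 libraries with the lowest nuclear level were the 3 with the highest level of 8 liver endothelial markers: -0.09, -0.46, 0.81, -0.07 and -0.06 in M1 to M5, -0.16, -0.12, 0.81 and 0.03 in M6 to M9, -0.42, -0.21 and -0.42 in M10 to M12 and -0.23, -0.17 and 0.54 in M13 to M15. None of the 8 was at 0 in any library, and their summed level was 2018 to 3910 normalized counts in luciferase livers after water, 2136 to 4063 in LbNOX livers after water, 1892 to 2791 in luciferase livers after ethanol and 2354 to 3537 in LbNOX livers after ethanol. The 7 Kupffer cell markers tested were also highest in these libraries by the median, at 0.84 in M3, 0.48 in M8 and 0.51 in M15, with M5 next at 0.26. By the mean over markers, M15 was highest at 0.96, but M5 (0.31) and M4 (0.27) stood above M8 (0.26) and M3 (0.25). By the median, neutrophil markers were highest in M13 (2.61), stellate cell markers in M11 (0.23) and B and plasma cell markers in M4 (1.68). By the mean over markers, stellate cell markers were highest in M3 (0.42), with M11 next at 0.21. Their summed counts were highest in M3 (4771), M8 (4077) and M15 (4031), with M11 close at 4026. T and NK cell markers (1.64) and red blood cell markers (0.71) were highest in M3. The 8 hepatocyte markers were low in M3 (-0.32) and M8 (-0.58) but not in M15 (0.04). They were also low in M1 (-0.26) and M13 (-0.25), which did not stand out as low for the nuclear genes. By summed counts M8 was lowest (668626), while M3 (911823) was above M1, M2, M12 and M13. The 82 cytosolic ribosomal protein genes tested were also low in M3 (-0.17), M8 (-0.27) and M15 (-0.33) and high in M5 (0.34) and M9 (0.38). However, they were as low in M14 (-0.18) as in M3, and the nuclear level of M14 was 0.05. The part of cell makeup or RNA quality in these differences was not tested.

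**Figure D2:**
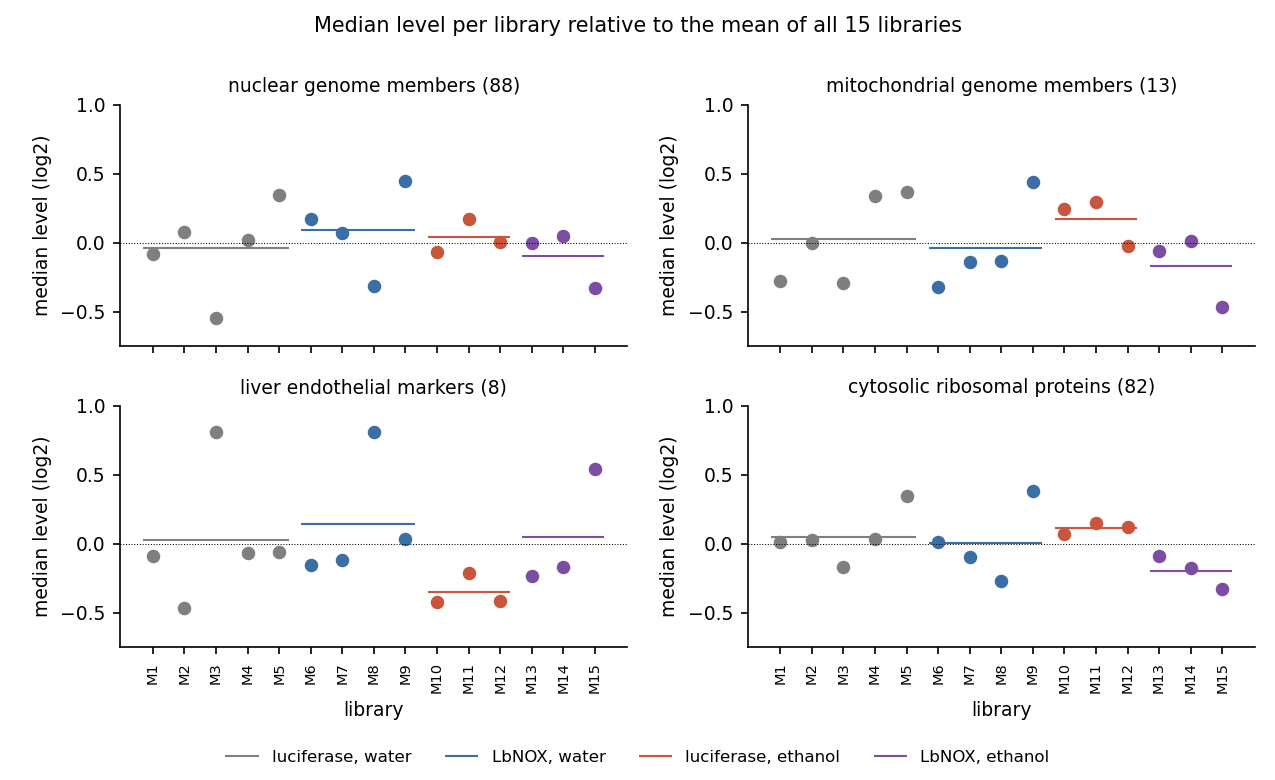
Median log2 level per library, relative to the mean of all 15 libraries, for the nuclear members, the mitochondrial members, 8 liver endothelial markers and 82 cytosolic ribosomal protein genes; each point is a library, coloured by group, and each line is the mean of a group. M3, M8 and M15 are the lowest points of the nuclear members and the highest of the endothelial markers.

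The promoters of the nuclear members are described next, since these genes moved together. A promoter of 250 bases before to 50 after the start was found in RefSeq (GRCm38.p6) for 72 of the 91 nuclear members, and both strands were searched for fixed letters of known motifs. The NRF1 motif GCATGCGC, bound by nuclear respiratory factor 1, was found in 12 of the 72 (16.7%), against 2.71% of all 32851 promoters. The ETS motif CCGGAAG of GABP, also called nuclear respiratory factor 2, was found in 17 (23.6%), against 8.86% of all promoters, the YY1 motif AAGATGGC in 10 (13.9%), against 2.75%, and the estrogen-related receptor motif AAGGTCA in 8 (11.1%), against 4.72%. TATAAA, the core of the TATA box, was found in 6 (8.33%), against 13.6% of all promoters. Among the genes with a promoter that are listed in this count table the shares were 5.25% for NRF1, 17.0% for GABP, 4.54% for YY1, 4.32% for the estrogen-related receptors and 10.3% for TATAAA. These last shares count genes, as those of the members do. The shares of all promoters count single promoters, not limited to genes of this count table, so they are not on a par with the member shares. A match is a description of these letters and not a site shown to be bound.

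The promoters of cytochrome c (chr6:50566520-50566819, minus strand) and of Sdhb (chr4:140961021-140961320, plus strand) are shown as examples with the NRF1 motif, and in Sdhb also the GABP motif, in capitals. That of Cox7a1 (chr7:30183921-30184220, plus strand) is shown because this gene was the only member called. It holds none of the letters searched for NRF1, GABP or YY1, which is also so for many of the 72 member promoters. All 3 promoters read 5′ to 3′ on the strand of the gene, from RefSeq, GRCm38.p6:
Cycs: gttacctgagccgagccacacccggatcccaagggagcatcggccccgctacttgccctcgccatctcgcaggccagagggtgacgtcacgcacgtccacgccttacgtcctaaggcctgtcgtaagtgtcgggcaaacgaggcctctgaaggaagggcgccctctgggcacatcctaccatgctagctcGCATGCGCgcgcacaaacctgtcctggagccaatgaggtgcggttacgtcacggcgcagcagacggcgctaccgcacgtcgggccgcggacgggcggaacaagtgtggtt
Sdhb: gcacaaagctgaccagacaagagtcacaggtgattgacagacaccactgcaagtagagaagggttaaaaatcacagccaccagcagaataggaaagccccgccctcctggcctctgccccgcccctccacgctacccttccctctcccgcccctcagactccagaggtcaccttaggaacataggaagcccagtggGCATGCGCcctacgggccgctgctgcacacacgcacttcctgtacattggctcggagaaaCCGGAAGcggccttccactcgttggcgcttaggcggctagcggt
Cox7a1: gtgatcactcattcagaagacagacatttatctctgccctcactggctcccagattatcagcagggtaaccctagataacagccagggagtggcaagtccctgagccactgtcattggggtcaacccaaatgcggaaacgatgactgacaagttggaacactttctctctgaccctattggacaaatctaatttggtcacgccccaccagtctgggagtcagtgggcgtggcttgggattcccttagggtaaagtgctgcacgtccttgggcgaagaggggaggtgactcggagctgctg

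Ethanol in luciferase livers gave 1 call among the members, Cox7a1, with most fold changes of the others close to 0. With limma, Cox7a1 alone of the 101 members was called, lower after ethanol, at an adjusted p below 0.05, while 7.75% of all 13570 genes tested were called (1052 genes). The median log2 fold change was 0.06 for the 88 nuclear and 0.15 for the 13 mitochondrial members, against 0.01 for all genes tested. Without M3, or without M3 and M8, the nuclear median was -0.06, so its direction rests on M3. The mitochondrial median was 0.04 after quantile normalization and was 0.07 without M11, 0.08 without M1 or M3, and 0.23 without M4, M5 or M12. Above 0 were 74 of the 88 nuclear and all 13 mitochondrial members. The 95% interval lay within a 2-fold change in either direction for 97 of the 101 members, against 62.8% of all genes tested. The libraries of both groups failed to overlap for 2 members (1.98%), Cox7a1 and Ndufa4l2, both lower after ethanol, against 14.7% of all genes tested.

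By complex, the median log2 fold change of the nuclear subunits after ethanol was 0.10 for complex I, 0.17 for complex II, 0.04 for complex III, 0.00 for complex IV and 0.04 for complex V; for the mitochondrial subunits it was 0.13 for complex I, 0.19 for complex III, 0.15 for complex IV and 0.17 for complex V. Ndufa6, an accessory subunit of complex I, had the highest value among well-measured members, those with a mean of 100 or more, at 0.42 (95% interval -0.13 to 0.97, adjusted p = 0.387). Its counts were 1029, 1291, 733, 1337 and 1758 after water and 1567, 1739 and 1453 after ethanol, so the groups overlapped through M5. Sdhb was the highest of complex II at 0.25 (95% interval -0.26 to 0.76, adjusted p = 0.624). The lowest of complex IV with a mean of 100 or more was Cox7b, at -0.15 (95% interval -0.72 to 0.42, adjusted p = 0.816).

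Cox7a1 codes for the heart and muscle form of a small subunit of complex IV. Its normalized counts were 12.6, 5.45, 8.31, 10.6 and 40.98 in M1 to M5, 28.8, 15.6, 10.8 and 5.04 in M6 to M9, 0, 0 and 0 in M10 to M12 and 26.3, 26.6 and 0 in M13 to M15. It was detected in all 9 water libraries, listed at 0 in all 3 luciferase libraries after ethanol, and at 0 in 1 of 3 LbNOX libraries after ethanol, M15. With 3 reads per library as the floor (3.62 normalized counts), the luciferase water mean of 15.6 was 4.30-fold above it. That mean is raised by M5 at 40.98, and M2 at 5.45 was close to the floor. The fitted log2 fold change, on log2 of the normalized count plus 1, was -3.72 (SE 0.96, adjusted p = 0.029); the gene is low, with 6 to 41 reads per library in luciferase livers after water. The call was held in 19 of 25 alternatives, with adjusted p between 0.00142 and 0.103, and was lost with a pseudocount of 5 (adjusted p = 0.0842) and without M1 (0.0571), M5 (0.0591), M10 (0.103), M11 (0.0783) or M12 (0.0861).

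Its widely expressed partner Cox7a2 stood at 1768, 2185, 1793, 1948 and 2789 in luciferase livers after water and 1975, 2093 and 1990.4 after ethanol, and its log2 fold change was -0.03 (95% interval -0.36 to 0.29, adjusted p = 0.942). The other muscle isoforms did not share the pattern of Cox7a1. Cox6a2 was 0, 19.99, 14.96, 2.35 and 2.998 in M1 to M5, 19.7, 13.3, 0.77 and 2.52 in M6 to M9, 13.3, 11.7 and 16.2 in M10 to M12 and 0, 4.92 and 1.21 in M13 to M15. It was high in M2, M3, M6, M7 and M10 to M12, the libraries in which skeletal muscle actin, Acta1, was high: 4.80, 402, 230.2, 0 and 89.95 in M1 to M5, 349, 283, 53.1 and 17.6 in M6 to M9, 427, 483 and 379 in M10 to M12 and 24.9, 128 and 70.1 in M13 to M15. Cox8b, which did not pass the filter, was 0, 8.18, 8.31, 3.52 and 2.998, 4.11, 3.13, 1.54 and 1.26, 8.47, 5.83 and 6.23 and 1.38, 3.93 and 2.42 in the same order. The list of muscle and fat markers holds Cox6a2, Cox7a1 and Cox8b themselves, so it was summed over its other genes, 7 of 8 in the table. Their summed level was 2.35 to 752 in luciferase livers after water, 45.4 to 608 in LbNOX livers after water, 753 to 966 in luciferase livers after ethanol and 55.3 to 306 in LbNOX livers after ethanol. The brown fat marker Ucp1 was at 0 in 13 of the 15 libraries. The part of muscle or fat tissue in the levels of Cox6a2, Cox8b and Cox7a1 was not tested.

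**Figure D3:**
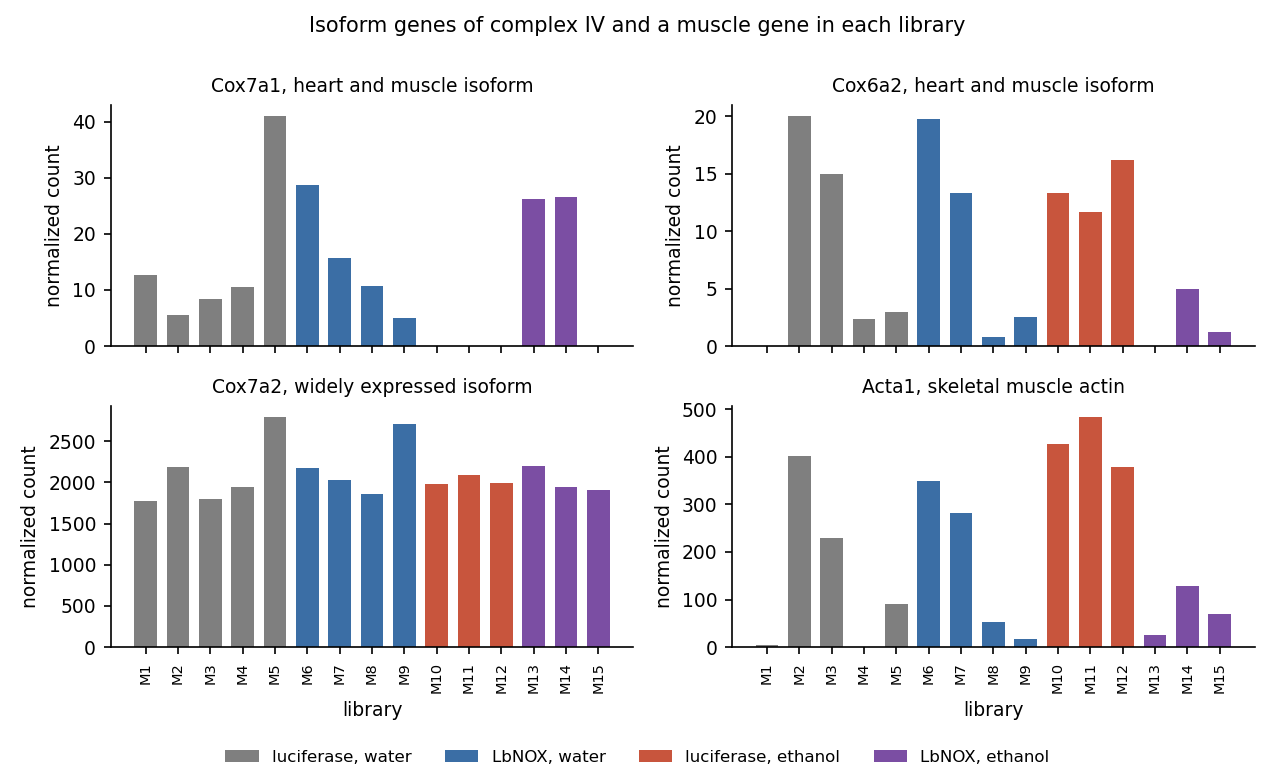
Normalized counts of Cox7a1, Cox6a2, Cox7a2 and Acta1 in each of the 15 libraries, coloured by group, on linear axes that start at 0. Cox7a1 has no bar in M10, M11, M12 and M15, Cox6a2 is high where Acta1 is high, and Cox7a2 lies between 1768 and 2789 throughout.

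Ndufa4l2, a relative of the complex IV subunit Ndufa4 that is known to be induced by hypoxia, was the other member without overlap. Its counts were 8.99, 19.1, 7.48, 15.2 and 30.98 in luciferase livers after water and 4.84, 6.997 and 6.23 after ethanol, all 3 ethanol values below the 5 others, and its log2 fold change was -1.15 (95% interval -2.15 to -0.15, adjusted p = 0.168). In LbNOX livers it was 12.3, 9.38, 13.9 and 27.7 after water and 8.30, 10.8 and 15.7 after ethanol, which overlap.

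For the subunits that carry the electron path no difference was called. Ndufv1, the NADH-binding subunit, stood at 4284 ± 826 normalized counts (SD, n = 5) after water and 4566 ± 656 (n = 3) after ethanol, at 0.11 (95% interval -0.32 to 0.53, adjusted p = 0.828) on the log2 scale. Sdha, the flavoprotein of complex II, was 8263 ± 1811 and 9086 ± 605, at 0.17 (95% interval -0.23 to 0.56, adjusted p = 0.681). Uqcrfs1, the Rieske iron-sulfur protein of complex III, was 4024 ± 816 and 3946 ± 352, at -0.01 (95% interval -0.40 to 0.39, adjusted p = 0.994). In each of these the interval spans 0 and the values of both groups overlap.

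Cytochrome c (Cycs, chr6:50562563-50566538, GRCm38) was 4356, 3891, 2750.1, 3222 and 3873 in M1 to M5 and 2798, 3406 and 3487 in M10 to M12, with a log2 fold change of -0.15 (95% interval -0.48 to 0.18, adjusted p = 0.645). Cox4i1, the common form of a regulatory subunit of complex IV, was 6898 ± 1441 after water and 6936 ± 656 after ethanol, at 0.03 (95% interval -0.38 to 0.44, adjusted p = 0.957). Atp5b was 24289.6 ± 7188 and 23965 ± 4286, at 0.01 (95% interval -0.53 to 0.55, adjusted p = 0.99). For all 3 the values of both groups overlapped.

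**Figure D4:**
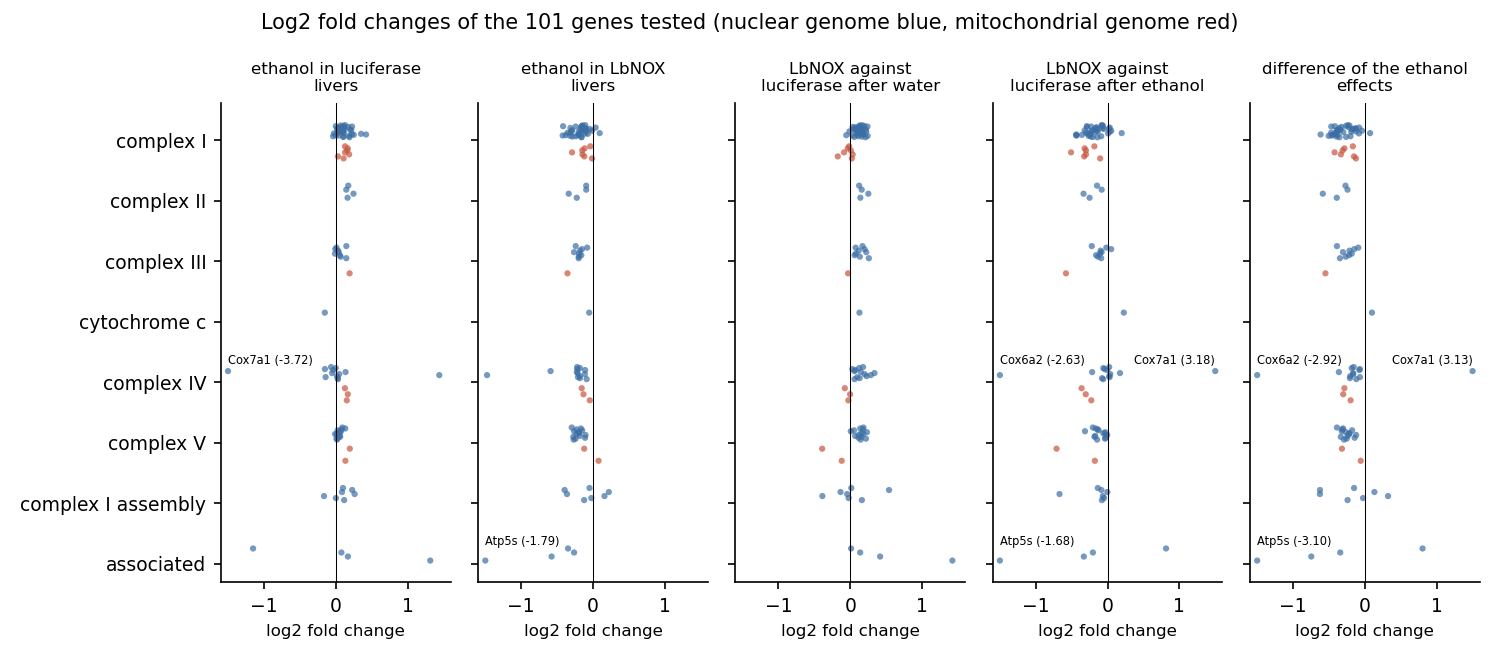
Log2 fold change of each of the 101 genes tested in 5 comparisons, by complex, blue for the nuclear and red for the mitochondrial genome; points beyond 1.5 in either direction are drawn at 1.5 with the gene and its value. The points beyond 1.5 are those of the low genes Cox7a1, Cox6a2 and Atp5s, and the point of Ndufa4l2 after ethanol in luciferase livers lies at -1.15.

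Ethanol in LbNOX livers gave no call among the members, and most of their point estimates lay below 0. With limma 0 of 101 members and 0.00737% of all genes tested (1 gene) were called; 1 member, Atp5sl, had an unadjusted p below 0.05, and on recovered reads edgeR called 0 members, with 1 gene called in all, and DESeq2 0 members, with 2.08% of all genes called (282 genes). The median log2 fold change was -0.19 for the nuclear and -0.12 for the mitochondrial members, against a value within 0.01 of 0 for all genes tested, and 84 of 88 nuclear and 12 of 13 mitochondrial members were below 0. For 96 of the 101 members the 95% interval lay within a 2-fold change. No member had groups without overlap, against 10.9% of all genes tested.

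The 3 smallest p-values in LbNOX livers belonged to Atp5sl, Ndufs8 and Ndufa2. Atp5sl, which takes part in building complex I despite its name, was 447, 444, 297 and 551 after water and 235, 416 and 235 after ethanol, and 2 of the 3 ethanol values lay below all water values; its log2 fold change was -0.58 (95% interval -1.15 to -0.00, adjusted p = 0.43). Ndufs8, an iron-sulfur subunit of complex I, was 1089, 1038, 751 and 1523 and 827, 921 and 667, at -0.42 (95% interval -0.89 to 0.06, adjusted p = 0.497). Ndufa2, an accessory subunit, was 589.9, 555, 398 and 845 and 505, 505 and 311, at -0.42 (95% interval -0.93 to 0.09, adjusted p = 0.524). In all 3 the lowest value of each group was that of M8 or M15.

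The size of these values rests on single libraries. Leaving out 1 library at a time moved the median of the nuclear members between -0.33 without M8 and -0.05 without M9, with -0.07 without M15, and that of the mitochondrial members between -0.24 and 0.05, above 0 without M9 or M15 and, at 0.04, after quantile normalization. Without M3 and M8 the nuclear median was -0.33 and 30 members had an unadjusted p below 0.05, and without M8 alone 12 did. No member was called in either fit, while 142 genes were called in the first and 2 in the second. Both fits leave out M8, the low library of the water group, and keep M15, the low one of the ethanol group. This moves the values down, so these counts are not read as a result about the members. By complex, the median of the nuclear subunits was -0.16 for complexes I and II, -0.19 for complex III and -0.21 for complexes IV and V. The 1 mitochondrial member above 0 was mt-Atp6, the proton channel subunit of the ATP synthase, at 0.08 (95% interval -0.50 to 0.66, adjusted p = 0.934).

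LbNOX against luciferase after water also gave no call among the members, with nuclear subunits mostly above 0 in point estimate. With limma 0 members and 0% of all genes tested were called; 1 member, Ndufaf6, had an unadjusted p below 0.05, and edgeR and DESeq2 called 0 members, with 0 and 18 genes called in all (0.133% for DESeq2). The median log2 fold change was 0.14 for the nuclear members, 82 of 88 above 0, and -0.03 for the mitochondrial members, 10 of 13 below 0. The nuclear median was 0.01 without M3, 0.02 without M9 and 0.26 without M8, and the mitochondrial one ran from -0.19 without M9 to 0.04 without M6. The interval lay within a 2-fold change for 95 of the 101. Groups without overlap were seen for 0 members, against 0.936% of all genes tested.

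The members with the smallest p after water were Ndufaf6, Atp5sl and Cyc1. Ndufaf6, an assembly factor of complex I, was 133, 204, 126, 108 and 105 in luciferase and 201, 175, 152 and 248 in LbNOX livers, with all 4 LbNOX values above 4 of the 5 luciferase values, at 0.54 (95% interval 0.07 to 1.00, adjusted p = 1.00). Cyc1, the cytochrome c1 subunit of complex III, was 1426, 1717, 1085, 1551 and 2074 and 1904, 1813, 1499 and 2201, at 0.26 (95% interval -0.10 to 0.62, adjusted p = 1.00). mt-Atp8 had the lowest value of the mitochondrial members, at -0.39 (95% interval -1.11 to 0.33, adjusted p = 1.00), with 8191, 8573, 14999, 17289.8 and 17578 in luciferase and 5100.3, 10188, 14469.5 and 11387 in LbNOX livers, which overlap. Ndufv1 was 4725, 4524, 2834, 4466 and 4869 and 5431, 4951, 3528 and 5686, at 0.20 (95% interval -0.20 to 0.59, adjusted p = 1.00).

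LbNOX against luciferase after ethanol had most members lower in point estimate, and none passed the test. With limma 0 of 101 members were called, against 6.06% of all genes tested (822 genes); 4 members, Cox7a1, Ndufaf4, mt-Cytb and Cox6a2, had an unadjusted p below 0.05. edgeR called 0 members, beside 5.56% of all genes, and DESeq2 called 1, Cox7a1, with an adjusted p of 0.00255, beside 9.94% of all genes. The median log2 fold change was -0.13 for the nuclear members, 73 of 88 below 0, and -0.30 for the mitochondrial members, 13 of 13 below 0, against 0.00 for all genes tested. After quantile normalization the nuclear median was -0.08 and the mitochondrial one -0.05. The size of both and the order of the genomes thus differ between the scalings. Quantile normalization evens out very abundant genes by design, and mt-Co1 stood at exactly 0 under it. It cannot tell which size of the mitochondrial median is right. The interval lay within a 2-fold change for 81 of 88 nuclear but for only 9 of 13 mitochondrial members.

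Leaving out 1 library at a time moved the nuclear median between -0.18 and -0.03, nearest to 0 without M15. The libraries of both ethanol groups did not overlap for 17 of the 101 members (16.8%), below the 29.6% of all genes tested. They are named after their values were seen. Higher in all 3 LbNOX libraries were Cycs and Ndufa4l2; lower were the complex I genes Ndufa2, Ndufa3, Ndufa6, Ndufa8, Ndufb7, Ndufs6, Ndufs8, mt-Nd4 and mt-Nd5, the assembly factor Ndufaf4, Uqcrq and mt-Cytb of complex III, Cox6a2 and Cox6c of complex IV, and Atp5j of complex V. Cycs was 2798, 3406 and 3487 in luciferase and 4212, 3613 and 3494 in LbNOX livers, the lowest LbNOX value just above the highest luciferase value, at 0.23 (95% interval -0.14 to 0.59, adjusted p = 0.485). Ndufaf4, a complex I assembly factor, had the lowest point estimate of the nuclear members with a mean of 100 or more; it was 854, 822 and 843 and 539.7, 630.4 and 432, at -0.67 (95% interval -1.20 to -0.14, adjusted p = 0.134). It was called in 1 of 26 alternatives, without M3 and M8 (adjusted p = 0.0389, range over the alternatives 0.0389 to 0.387).

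Among the mitochondrial genes, mt-Cytb, the cytochrome b of complex III, had the smallest p. Its counts were 132141, 133692 and 116986 in luciferase and 88076, 98619.5 and 71239.5 in LbNOX livers after ethanol, all 3 LbNOX values lower, and the log2 fold change was -0.58 (95% interval -1.09 to -0.07, adjusted p = 0.181). After water it was 93623, 115233, 88567, 124497 and 144081 in luciferase and 91247, 101237, 94304 and 162267 in LbNOX livers, which overlap. mt-Nd4 of complex I was 114168, 121574 and 101345 and 84175, 98023 and 59169.7 after ethanol, at -0.51 (95% interval -1.08 to 0.06, adjusted p = 0.291).

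mt-Atp8 had the lowest point estimate of the 13 and the widest interval, -0.71 (95% interval -1.59 to 0.17, adjusted p = 0.342), with 21436, 15528 and 9083 and 8983, 10970 and 6997. For mt-Co1 the counts were 325717, 361601 and 303609 in luciferase and 322878, 301170 and 229570 in LbNOX livers, M13 above M12, at -0.23 (95% interval -0.70 to 0.25, adjusted p = 0.601). mt-Nd1 was nearest to 0, at -0.10 (95% interval -0.57 to 0.36, adjusted p = 0.828). mt-Nd6, read from the other strand, was at -0.18 (95% interval -0.62 to 0.25, adjusted p = 0.646). Leaving out 1 library at a time moved the mitochondrial median between -0.42 without M12 and -0.18 without M15.

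**Figure D5:**
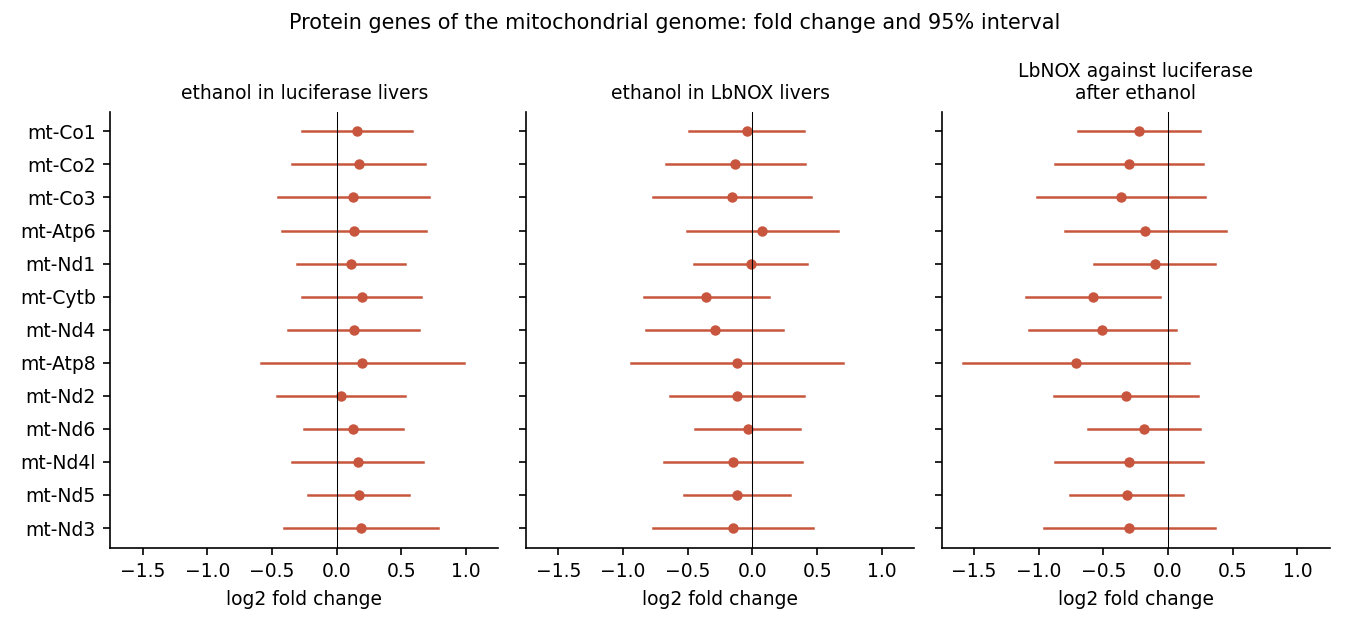
Log2 fold change (point) and 95% interval (line) of the 13 protein genes of the mitochondrial genome for ethanol in luciferase livers, ethanol in LbNOX livers and LbNOX against luciferase after ethanol. All 13 points lie above 0 in the first panel and below 0 in the third, and the only interval in the panels that leaves out 0 is that of mt-Cytb in the third.

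Cox7a1 was higher in LbNOX than in luciferase livers after ethanol in 2 of 3 libraries, 26.3 and 26.6 against 0, and listed at 0 in the third, M15. The log2 fold change was 3.18 (95% interval 0.88 to 5.49, adjusted p = 0.0994). Without M15 it was 4.78 with an adjusted p of 0.00715, and the adjusted p ran from 0.00255 to 0.308 over 24 alternatives. The LbNOX mean of 17.6 ± 15.3 was 4.86-fold above the floor of 3 reads per library. This is no lower bound on the difference, since M15 was itself at 0. Cox6a2 was 13.3, 11.7 and 16.2 in luciferase and 0, 4.92 and 1.21 in LbNOX livers, at -2.63 (95% interval -5.08 to -0.19, adjusted p = 0.203), in parallel with Acta1 as given above.

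The difference of the ethanol effects, LbNOX minus luciferase, asks whether the response of a member to ethanol depended on the construct. No member was called by limma, against 1.67% of all genes tested (227 genes); 1 member, Cox7a1, had an unadjusted p below 0.05. edgeR called 0 members, beside 1.62% of all genes, and DESeq2 called Cox7a1, with an adjusted p of 0.0201, beside 4.66% of all genes. The median difference was -0.25 for the nuclear members, 82 of 88 below 0, and -0.29 for the mitochondrial members, 13 of 13 below 0, against -0.01 for all genes tested. This comparison was the least precise: the interval lay within a 2-fold difference for 61 of the 101 members. After quantile normalization the mitochondrial median was 0.03 and the nuclear median -0.16. That scaling evens out very abundant genes by design, so the change of sign for the mitochondrial genes cannot decide their direction. Without M15 the mitochondrial median was -0.10, and leaving out 1 library at a time moved the nuclear one between -0.40 without M8 and -0.13 without M9.

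Cox7a1 had a difference of 3.13 (95% interval 0.15 to 6.11, adjusted p = 0.313); without M15 it was 4.72 with an adjusted p of 0.0487, and over 24 alternatives the adjusted p ran from 0.0201 to 0.528. Among members with a mean of 100 or more the lowest differences were those of Atp5sl, at -0.75 (95% interval -1.54 to 0.05, adjusted p = 0.37), Ndufaf4, at -0.63 (95% interval -1.32 to 0.06, adjusted p = 0.387), Ndufaf6, at -0.62 (95% interval -1.36 to 0.11, adjusted p = 0.419), and Ndufa6, at -0.62 (95% interval -1.41 to 0.18, adjusted p = 0.471). The highest was that of Cycs, at 0.10 (95% interval -0.38 to 0.57, adjusted p = 0.868). By complex the median of the nuclear subunits was -0.33 for complexes I and II, -0.22 for complex III, -0.16 for complex IV and -0.26 for complex V. The comparisons share their control libraries, so their values are set side by side only.

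Assembly factors and regulators of the pathway were counted in the same way. Of 9 further complex I assembly factors tested, 2 of complex II, 5 of complex III and 2 of the ATP synthase, none was called in any of the 5 comparisons by limma; at an unadjusted p below 0.05 were 1 of the 9 in 1 comparison, 1 of the 2 of complex II in 4, 1 of the 5 in 2 and 0 of the 2 of the ATP synthase. Of 19 complex IV assembly factors, 1 (5.26%) was called higher after ethanol in luciferase livers, where 7.75% of all genes were called in either direction. Another was called lower in LbNOX against luciferase livers after ethanol, beside 6.06% of all genes, and in the difference of the ethanol effects, beside 1.67%. Of 16 genes that serve the expression of the mitochondrial genome, 1 (6.25%) was called lower after ethanol in luciferase livers. Of 11 regulators, among them Ppargc1a, Nrf1, Gabpa and Esrra, 1 (9.09%) was called lower in LbNOX against luciferase livers after ethanol.

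Sco2, a copper chaperone needed to build the copper center of complex IV, rose after ethanol in luciferase livers. It was 463, 524, 338, 476 and 625 after water and 856, 833 and 783 after ethanol, all 3 ethanol values above the 5 others; the log2 fold change was 0.79 (SE 0.21, adjusted p = 0.0348). In LbNOX livers it was 614, 555, 464 and 781 and 486, 634 and 354, which overlap, at -0.31 (95% interval -0.79 to 0.16, adjusted p = 0.615). The rise was called in 19 of 26 alternatives and was lost without M1, M2, M3, M10, M11 or M12 and without the variance trend, with adjusted p between 0.0511 and 0.133 there. The difference of the effects was -1.10 (95% interval -1.76 to -0.44, adjusted p = 0.0936).

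Cox10, which makes the heme O precursor of the heme in complex IV, was lower in LbNOX than in luciferase livers after ethanol. It was 507, 579.6 and 513 in luciferase and 267, 390.4 and 232 in LbNOX livers, without overlap; the log2 fold change was -0.88 (SE 0.20, adjusted p = 0.0219). After water it was 504, 414, 282, 419 and 448 and 492, 485, 457 and 467. The call was held in 20 of 26 alternatives and lost without M10, M11, M12, M13 or M15 and in a fit of only these 2 groups, with adjusted p up to 0.105. The difference of the ethanol effects was called at -1.11 (SE 0.26, adjusted p = 0.0497), in 8 of 25 alternatives, with adjusted p from 0.00807 to 0.14; leaving out any of M2, M4, M5, M6, M7, M9 to M13 or M15 ended that call.

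Pnpt1, an exonuclease that degrades mitochondrial RNA, was lower after ethanol in luciferase livers, 717, 663, 631, 927 and 575 against 461, 522 and 517, at -0.47 (SE 0.14, adjusted p = 0.0496). The call stood in 8 of 26 alternatives, with adjusted p up to 0.201, and was lost by leaving out any library but M5. Ppargc1b, a coactivator of mitochondrial genes, was lower in LbNOX than in luciferase livers after ethanol, 180.3, 162 and 199 against 74.7, 109 and 99.2, at -0.94 (SE 0.26, adjusted p = 0.0462); 12 of 26 alternatives held the call, with adjusted p up to 0.166, and it was lost without M1, M2, M5, M6, M7 or any of M10 to M15. Of the 82 ribosomal protein genes tested, 2 (2.44%) were called in the same comparison, below the 6.06% of all genes. These were Rpl12 and Rpl13 of the large subunit, both lower, Rpl12 at -0.75 (SE 0.16, adjusted p = 0.0131) and Rpl13 at -0.49 (SE 0.14, adjusted p = 0.0484). Rpl12 was 1003, 1005 and 1016 in luciferase and 729, 595 and 493 in LbNOX livers, and Rpl13 4201, 4272 and 4429 and 3309, 3109.6 and 2816. Both were without overlap, as were 29.6% of all genes tested. Rpl12 lost its call without M10, M12 or M15, with adjusted p up to 0.0704. Rpl13 was called in 11 of 26 alternatives, with adjusted p up to 0.186, and lost it without M1, M2, M6, M7 or any of M10 to M15. The median log2 fold change of the ribosomal protein genes was -0.32 there, beside -0.13 and -0.30 for the nuclear and mitochondrial members.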

How the data were processed

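Per the labels' protocols, the mouse liver libraries came from a KAPA kit for mRNA. The deposited table holds normalized counts per gene (handled as a signal, since the values are not whole) for 16330 genes in 15 libraries, as the authors deposited them; Salmon 1.5.1, DESeq2 1.30.1 and the build mm10 are listed, per the submitters' processing notes, with no role stated. Dividing each library by the value of 1 read gave whole numbers, within 0.001, for 100% of 244950 values, and these recovered reads gave the depth. The table has 23 names that read like dates, which were left as they are.

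Values were tested as log2(normalized count + 1) with limma 3.58.1 (R 4.3.3; variance trend and robust variances) in 1 fit of the 4 groups with 5 contrasts, over 13570 genes with 10 or more in at least 3 libraries. P-values were adjusted over all genes tested by Benjamini-Hochberg with a threshold of 0.05, and intervals are 95% intervals. The fit was tested on simulated data. Count tests on the recovered reads called 1049, 1, 0, 755 and 220 genes with edgeR 4.0.16 in the order of the report's comparisons, and DESeq2 1.42.0 was a further alternative. Other alternatives were quantile normalization, pseudocounts of 0.5 and 5, no filter or a mean of 50 or more, no trend, no robust variances, only the groups compared, leaving out each library, and leaving out M3 and M8. Lengths and positions are from GENCODE vM21 (GRCm38).

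The members and lists were chosen with earlier results of these data known. Named with values were called members (up to 12 a comparison), the highest and lowest of a complex with a mean of 100 or more, mitochondrial genes, a fixed set of core subunits and isoforms, the 3 smallest p-values where none was called, and called members of other lists (up to 4 a list), with the text giving those that carry each comparison. Kinases of ribosomal protein S6 and Rps19bp1 were left out of the ribosomal list.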

Additional observations from a re-analysis of the deposited data

Results flagged for a closer look

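Single libraries stood far from the rest of their group in 11 of 162 groups of 4 or 5 libraries examined, by the gap to the nearest other library over the range of the group; chance gives about 1 in 20. In luciferase livers after water, Cox6b2 was lowest in M4, at 125.5 against 300.0 to 367.2 normalized counts in the others. Cox7a1 was highest in M5, at 40.98 against 5.453 to 12.59. Ndufaf6 was highest in M2, at 203.6 against 104.9 to 133.1, and Ndufv1 was lowest in M3, at 2834 against 4466 to 4869.

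In LbNOX livers after water, M9 was far above the others for 4 mitochondrial genes: mt-Co1 at 387772, mt-Co3 at 171146, mt-Cytb at 162267 and mt-Nd3 at 8782. The level of the mitochondrial subunits of complex V was lowest in M6, at -0.8171 on the log2 scale against -0.02144 to 0.1112. Pnpt1 was also lowest in M6, at 527.5 against 582.1 to 585.2, and Cox4i2 was 1.643 in M6 and 0 in the other 3.

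For Cox10 the test of the difference of the ethanol effects, LbNOX minus luciferase, gave -1.105 on the log2 scale (adjusted p = 0.0497 with limma). That call stood in 8 of 25 alternatives, with adjusted p from 0.00807 to 0.14, and was lost with edgeR, quantile normalization, no trend and no filter among others.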

How the results depend on the processing

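The number of members called after ethanol in luciferase livers, 1, was 0 with a mean of 50 or more, where Cox7a1 was not tested, and 0 with a pseudocount of 5, and ran from 0 to 1 when each library was left out. For LbNOX against luciferase after ethanol it was 0, but 1 with DESeq2 and 1 without M3 and M8, and 0 to 1 when each library was left out. For the difference it was 0, but 1 with DESeq2, and 0 to 1 when each library was left out. In the remaining 2 comparisons it was 0 under each alternative run. With quantile normalization the mitochondrial median was -0.051 for LbNOX against luciferase after ethanol and 0.031 for the difference. The range of the mitochondrial level over libraries was 0.57 against 0.90. Quantile normalization evens out very abundant genes by design, so these values cannot decide between the scalings. Over all genes, DESeq2 called 1621, 282, 18, 1349 and 633 genes in the order of the report, against 1052, 1, 0, 822 and 227. Fitting only the groups compared called 614 after ethanol in luciferase livers and 3 in LbNOX livers. Without the variance trend the difference had 151, and without M3 and M8 the counts were 142 in LbNOX livers, 2 after water and 395 for the difference. No paired analysis was possible because the columns carry library names and no replicate numbers. Leaving out mitochondrial rRNA and tRNA genes was not run, since the table used here lists none. The depth of 10.6 M to 23.7 M reads leaves Cox7a1, Cox6a2, Cox8b and Ndufa4l2 at few reads, so their values carry wide counting error.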
